A study of Danio rerio with 6 samples.

Results

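The zebrafish genes epcam, spint2, cdh17, cdh2, ctnnb1 and ctnnb2 were examined across all 6 libraries of an RNA sequencing study of the embryonic kidney. They were taken by gene name from the deposited count table, which held 1 row for each of them, or 6 of 10022 rows. The libraries were made from laser-captured cells of the distal tubule of the pronephros, the simple kidney that serves the fish embryo, at 48 hours post fertilization. The 3 epcam mutant libraries came from embryos homozygous for the allele hi2151 (epcam hi2151/hi2151), and the 3 control libraries from epcam+/+ embryos. Both groups carried Tg(wt1b:GFP) and Tg(cdh17:GFP), transgenes in which regulatory sequence of wt1b or cdh17 drives a green fluorescent protein. The sources used here do not say how many embryos or captures went into a library, so the p-values measure only the spread between these 6 libraries, part of which may be technical. The study asked which transcripts differ in the tubule of embryos that lack Epcam.

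Epcam is a transmembrane adhesion protein of simple epithelia, binds certain claudins and in human cells is cut by the membrane protease matriptase. Spint2 is a Kunitz-type inhibitor that spans the membrane and restrains matriptase and related serine proteases. In humans, loss of EPCAM or of SPINT2 causes congenital diarrhoea with a disordered intestinal epithelium. Cadherins join neighbouring cells in a calcium-dependent way. Cdh2, or N-cadherin, is the classical cadherin of neural tissue and muscle and holds beta-catenin on its cytoplasmic tail. Cdh17, whose mammalian form has a short cytoplasmic tail without a catenin-binding region, is a widely used marker of the zebrafish pronephric tubule and duct. Zebrafish have a pair of beta-catenin genes, ctnnb1 and ctnnb2, whose proteins link cadherins to alpha-catenin and carry the canonical Wnt signal to the nucleus, and maternal ctnnb2 is required to form the dorsal organizer.

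The lowest value of each column, 0 in control 2, was subtracted as an inferred constant that no label states. The libraries then held 126861 to 250714 counts in the mutants and 188022 to 746232 in the controls. Levels are given as CPM, the count scaled to library size with the TMM factors of edgeR. A floor of 3 counts equalled 8.58 to 19.5 CPM in mutant libraries and 5.46 to 17.6 CPM in control libraries. Captures also differed in content. The 16 rows of a list of pronephric markers, which leaves out the genes described here, summed to 10829, 2067 and 3925 CPM in mutants 1 to 3, against 13746, 12643 and 2387 CPM in controls 1 to 3. In the defining markers the kidney transcription factor pax2a was counted 30, 1 and 47 times in the mutants and 76, 129 and 7 times in the controls, and pax8 was at 0 in mutant 2. Skin markers (20 rows) summed to 735 to 3279 CPM in the mutants and to 3313, 4214 and 45991 CPM in controls 1 to 3. The keratin gene krt4 alone was at 25062 CPM in control 3, against 214 and 326 CPM in controls 1 and 2. The names of the libraries of control 3 and of all mutants begin with NG-8710, and those of controls 1 and 2 with NG-8793. Genotype can therefore be compared within 1 prefix only against control 3 alone.

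No epcam transcript was counted in the mutants once the lowest value of each column was subtracted. The epcam row (ENSDARG00000040534, GRCz10 chromosome 13, 8508749 to 8511340, plus strand) held 0, 0 and 0 counts in mutants 1 to 3 and 10, 15 and 10 counts in controls 1 to 3. Levels were therefore 0 CPM in each mutant and 22.1, 27.3 and 58.8 CPM in the controls, and the groups did not overlap. At the CPM of control 1, of control 2 or of control 3, the depth of the 3 mutant libraries together would have given 15.2, 18.8 or 40.6 epcam counts. By a floor of 3 counts per library, a count of 0 allows up to 16.1, 19.5 and 8.58 CPM in mutants 1 to 3. The control mean was 2.45-fold above the mean of these floors, or 1.68-fold with control 3 left out. These folds take the control mean as exact and the reads as independent molecules, which amplified reads are not. They are therefore not lower limits on the difference. The exact 95% intervals allow more in mutants 1 to 3, up to 19.8, 24.0 and 10.5 CPM. A two-sided exact permutation test gave p = 0.1, below which 3 libraries per group cannot go. The fit across all rows gave an unadjusted p of 0.0328 and an adjusted p of 0.272 (edgeR's quasi-likelihood test, Benjamini-Hochberg adjustment), so epcam was not called. Non-overlapping groups were found for 17.3% of all rows, 6.08% with mutants below and 11.2% with mutants above, so this pattern alone does not set epcam apart. No count in any mutant was found for 2.13% of rows. Together, 0 counts in every mutant and at least 10 counts in every control, limits taken from epcam's own values, were met by 8 rows of 10022 (0.0798%), epcam included. The other 7 were si:dkey-16l2.17, tcn2, vstm4a, rabac1, apoa4b.1, afp4 and pla2g15. The table was filtered by the authors before deposit, and a row at 0 in the mutants can have been kept through the controls alone. In bulk captures, fewer cells of a type and less RNA per cell cannot be told apart.

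The epcam counts did not follow the pronephric content of the control captures. Control 3 had the highest epcam level although its pronephric marker sum was the lowest of the controls, and it also had the highest sum of skin markers, another epithelium. Markers of gut, liver and yolk (22 rows) also differed in the direction of epcam, with sums of 440.01, 786 and 841 CPM in mutants 1 to 3 and of 11210.5, 15736 and 112176 CPM in controls 1 to 3, without overlap. The part of skin, gut, liver or yolk cells in the epcam difference was not tested. Shares within a pair of genes are not corrected for gene length and are compared only between libraries. Set against cdh17 in the same library, epcam made up 0.706% of the counts of the pair in control 1 (exact 95% interval 0.339% to 1.29%), 0.98% in control 2 (0.55% to 1.61%) and 31.2% in control 3 (16.1% to 50.01%). The mutants had 0 of 300, 0 of 25 and 0 of 109 such counts, which allows shares of up to 1%, 12% and 2.75%. Over the 3 mutants, 0 of 434 counts allow up to 0.691% by the same floor and up to 0.846% by the exact 95% interval used for the controls, limits on either side of the share in control 1. Relative to cdh17, the absence of epcam in a single mutant library was thus not distinguishable at this depth from the low shares in controls 1 and 2. For all 3 mutants together it was not clearly distinguishable from the share in control 1. The pooled limits lay below the share of 0.98% in control 2, but within its interval of 0.55% to 1.61%.

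**Figure D1:**
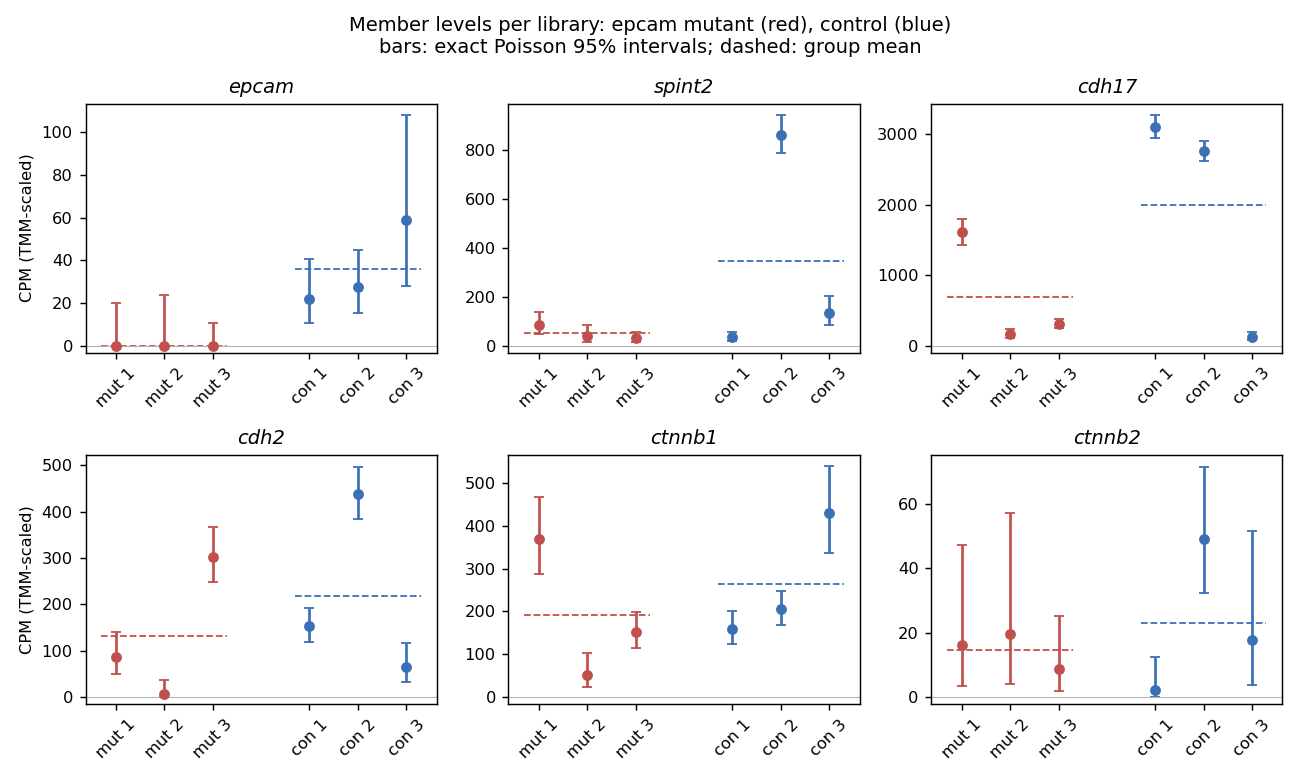
Level of each gene in CPM (TMM-scaled, linear axis) for mutants 1 to 3 (red, left) and controls 1 to 3 (blue, right), with exact Poisson 95% intervals for counting error and dashed group means. The epcam points lie at 0 in the mutants and at 22.1 to 58.8 CPM in the controls, whereas the groups overlap for the other 5 genes.

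Transcripts of the protease inhibitor spint2 stood high in 1 library. The row (ENSDARG00000069476, GRCz10 chromosome 15, 20303409 to 20314784, plus strand) held 16, 6 and 11 counts in the mutants and 16, 474 and 23 in the controls. This equals 85.9, 39 and 31.4 CPM in mutants 1 to 3, against 35.3, 862 and 135 CPM in controls 1 to 3. Control 2 exceeded control 1 by 24.4-fold, while mutants ranged over 2.73-fold and enclosed control 1. The mean was 52.1 ± 29.5 CPM in mutants and 344 ± 451 CPM in controls (SD, n = 3 each, exact permutation p = 0.3). The log2 fold change was -2.72 ± 1.64 (SE), with an adjusted p of 0.426 in edgeR's quasi-likelihood test. Without control 2 it was -0.70, so the size of the difference rested on that library.

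In rank order, the level of the tubule cadherin cdh17 largely followed the sum of the 16 pronephric marker rows in each capture. Its row (ENSDARG00000005112, GRCz10 chromosome 16, 26900740 to 26929356, plus strand) held 300, 25 and 109 counts in the mutants and 1406, 1515 and 22 in the controls. The levels were 1609.8, 162 and 312 CPM in mutants 1 to 3, against 3105, 2756 and 129 CPM in controls 1 to 3. Control 3 thus lay below every mutant, and controls 1 and 2 lay above every mutant. Ordered by cdh17 or by the sum of the 16 other pronephric rows, the libraries stood in the same order except that mutant 2 and control 3 changed places at the low end. A list of distal pronephric markers (15 rows) summed to 3740, 877 and 1658 CPM in mutants 1 to 3, against 3076, 3866 and 1376 CPM in controls 1 to 3. By that sum mutant 1 stood above control 1, whereas by cdh17 it stood below. The mean was 695 ± 796 CPM in mutants and 1997 ± 1627 CPM in controls (SD, n = 3 each, exact permutation p = 0.4). The log2 fold change was -1.52 ± 1.41 (SE, edgeR adjusted p = 0.662). With the library-name prefix as a term the sign turned, to 2.42, because control 3 is then the only control set against the mutants.

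As a share of its own counts and those of the 16 pronephric marker rows, cdh17 made up 12.9%, 7.29% and 7.35% in mutants 1 to 3 and 18.4%, 17.9% and 5.14% in controls 1 to 3. This scale was chosen after seeing the data. The mean share was 9.2% ± 3.25 in mutants and 13.8% ± 7.52 in controls (SD, n = 3 each, exact permutation p = 0.4), and control 3 again fell below all mutants. Between libraries cdh17 varied 24.0-fold in CPM among controls and 9.91-fold among mutants, ranges that exceed the difference between the group means.

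**Figure D2:**
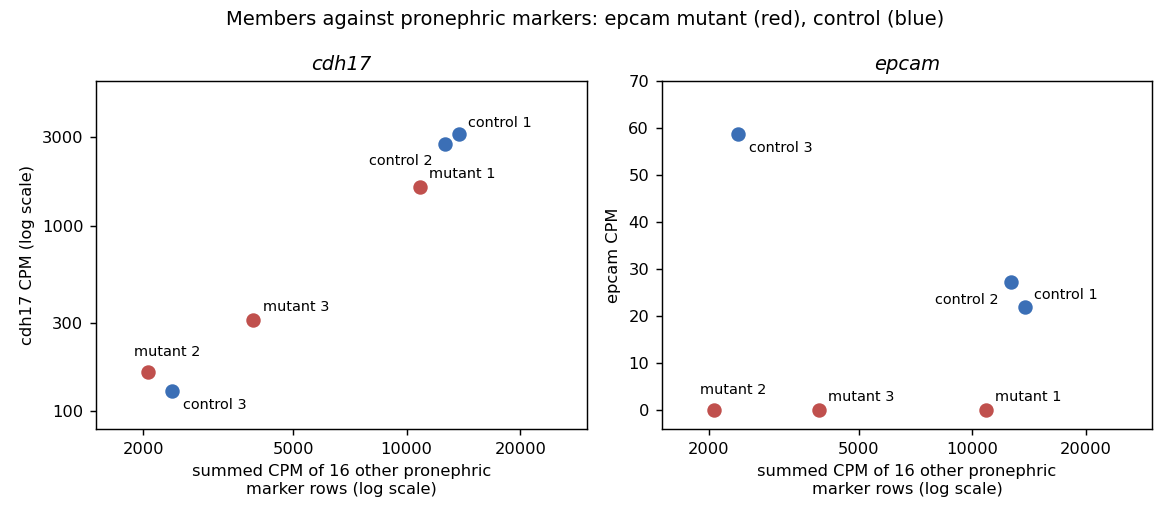
CPM of cdh17 (left, log axes) and of epcam (right, linear vertical axis) against the summed CPM of 16 other pronephric marker rows in each library, with mutants in red and controls in blue. The cdh17 level was lowest in control 3 and mutant 2, the libraries with the smallest marker sums, whereas epcam was highest in control 3 and 0 in all mutants.

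The neural and muscle cadherin cdh2 varied among libraries of both groups. Its row (ENSDARG00000018693, GRCz10 chromosome 20, 17840340 to 17919655, plus strand) held 16, 1 and 106 counts in the mutants and 69, 241 and 11 in the controls. The levels were 85.9, 6.5 and 303 CPM in mutants 1 to 3, against 152, 438 and 64.7 CPM in controls 1 to 3. Mutant 3 exceeded 2 of the controls and mutant 2 fell below all of them, so the groups overlapped. The log2 fold change was -0.72 ± 1.56 (SE, n = 3 per group, edgeR adjusted p = 0.885), and without control 2 it was 0.28.

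Markers of the tissues known for N-cadherin were present as well. The 6 listed rows of neuron and glia markers summed to 483, 721 and 715 CPM in the mutants and to 115, 58.2 and 35.3 CPM in the controls, with 3 of the 6 at 0 in every control. The 14 muscle rows summed to 3638, 5135 and 7533 CPM in the mutants and to 30588, 1738 and 935 CPM in the controls. The highest cdh2 level, in control 2, coincided with neither the highest neural nor the highest muscle sum. The part of these cells in the cdh2 counts was not tested.

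Within the pair of cadherins, cdh2 held 16 of 316 counts in mutant 1 (5.06%, exact 95% interval 2.92% to 8.09%), 1 of 26 in mutant 2 (3.85%, 0.0973% to 19.6%) and 106 of 215 in mutant 3 (49.3%, 42.4% to 56.2%). The controls had 69 of 1475 (4.68%, 3.66% to 5.88%), 241 of 1756 (13.7%, 12.1% to 15.4%) and 11 of 33 (33.3%, 18% to 51.8%). A share near 5% thus occurred in both genotypes, and each genotype also had a library in which the share was at least 33.3%. The mean share was 19.4% ± 25.9 in mutants and 17.2% ± 14.6 in controls (SD, n = 3 each, exact permutation p = 0.9). The difference of 2.16 percentage points turned to -12.8 without mutant 3 and to -4.12 without control 1.

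**Figure D3:**
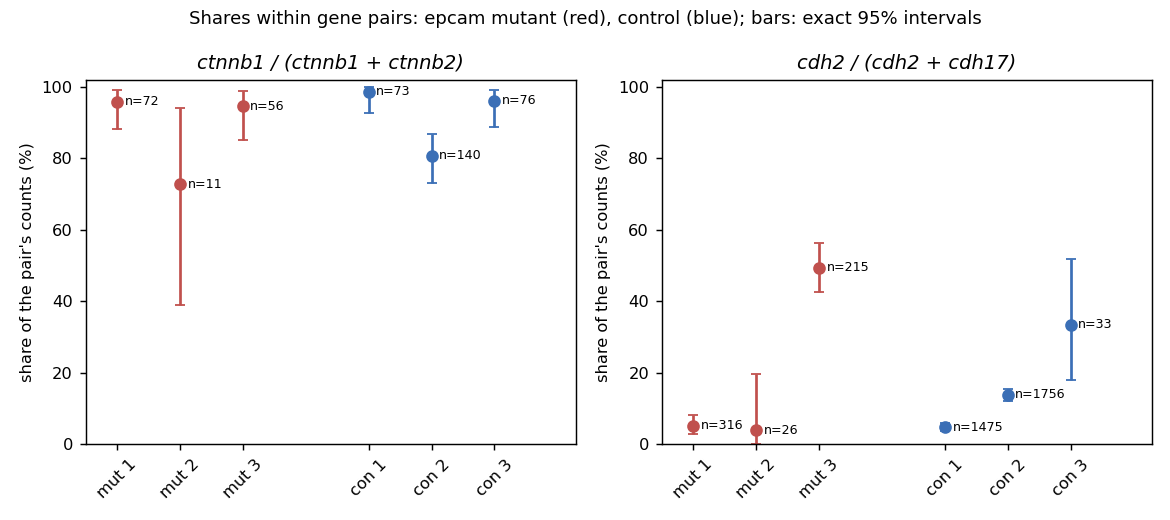
Share of ctnnb1 in the counts of ctnnb1 and ctnnb2 (left) and of cdh2 in the counts of cdh2 and cdh17 (right) for each mutant (red) and control (blue) library, in percent with exact 95% binomial intervals and the pair's total count n. The ctnnb1 share lay between 72.7% and 98.6% and the cdh2 share between 3.85% and 49.3%, with overlapping groups in both panels.

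Levels of ctnnb1, a beta-catenin gene, overlapped between the genotypes. Its row (ENSDARG00000014571, GRCz10 chromosome 16, 6281340 to 6304825, minus strand) held 69, 8 and 53 counts in the mutants and 72, 113 and 73 in the controls. The levels were 370.3, 52 and 152 CPM in mutants 1 to 3, against 159, 206 and 429 CPM in controls 1 to 3. Mutant 1 stood beside control 3, mutant 3 beside control 1, and mutant 2 below all other libraries. The mean was 191 ± 163 CPM in mutants and 265 ± 144 CPM in controls (SD, n = 3 each, exact permutation p = 0.5). The log2 fold change was -0.46 ± 1.51 (SE, edgeR adjusted p = 0.932), with an approximate 95% interval from -3.43 to 2.50 that leaves room for a large change in either direction. Without control 3 the value was 0.07. The 3′ end of ctnnb1 overlaps the listed gene ulk4, on the opposite strand, which had 15 to 35 counts in the mutants and 6 to 49 in the controls, and the unstranded reads of the overlap cannot be assigned to either gene.

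The paralogue ctnnb2 (ENSDARG00000023472, GRCz10 chromosome 19, 48326047 to 48346964, minus strand) was at or below the floor of 3 counts in 5 of the 6 libraries. It had 3 counts in each mutant and 1, 27 and 3 counts in the controls, or 16.1, 19.5 and 8.58 CPM in the mutants and 2.21, 49.1 and 17.6 CPM in the controls. A difference between genotypes was not detectable at this depth (log2 fold change -0.65 ± 2.25, SE, edgeR adjusted p = 0.938), and the value was 0.61 without control 2. The share of ctnnb1 in the counts of both beta-catenin genes was 95.8% of 72 counts, 72.7% of 11 and 94.6% of 56 in mutants 1 to 3, against 98.6% of 73, 80.7% of 140 and 96.1% of 76 in controls 1 to 3. Its exact 95% interval in control 2 was 73.2% to 86.9%, below the interval of 92.6% to 99.97% in control 1. The group means were 87.7% ± 13 in mutants and 91.8% ± 9.69 in controls (SD, n = 3 each, exact permutation p = 0.5), and the difference of -4.06 percentage points turned to 3.44 without mutant 2. The coding sequences of these paralogues are alike, and the counting step could have moved reads between them, so the split is uncertain.

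Across all rows, edgeR's quasi-likelihood test called 53 of 10022 rows at an adjusted p under 0.05 (0.529%), 31 higher (0.309%) and 22 lower (0.22%) in the mutants. Upper-quartile scaling gave 14 higher and 17 lower, and the library-name prefix as a term gave 0 higher and 32 lower. The total was unsteady too: with any 1 library left out edgeR called between 0 and 19 (19 without control 3, 5 without mutant 2, 1 without control 1 and 0 without each of the others). None of the 6 genes was called by edgeR, by DESeq2, which called 4.06% of rows, or by limma-voom, which called 0.17%. DESeq2 gave no adjusted p for epcam and ctnnb2. At an unadjusted p under 0.05, edgeR found 1 of the 6, epcam, against 15.4% of all rows in either direction and 4.59% lower. All 6 fold changes were below 0, against 52.9% of rows, with a median log2 fold change of -1.12 against -0.18 over all rows. Within the libraries named NG-8710, where control 3 is the only control and the mutants alone give the spread, 4 of the 6 were below 0, with a median of -0.72 against 1.11 over all rows. Under that comparison epcam was at -6.67, spint2 at -1.37, ctnnb1 at -1.16 and ctnnb2 at -0.28, while cdh17 was at 2.42 and cdh2 at 1.04. The size of the epcam value is not measured, since every mutant had 0 counts. The authors' deposited table of 379 rows with an adjusted p below 0.05, beside 10022 rows of counts, lists 0 of the 6 genes. For so few genes this does not show that they were unchanged.

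**Figure D4:**
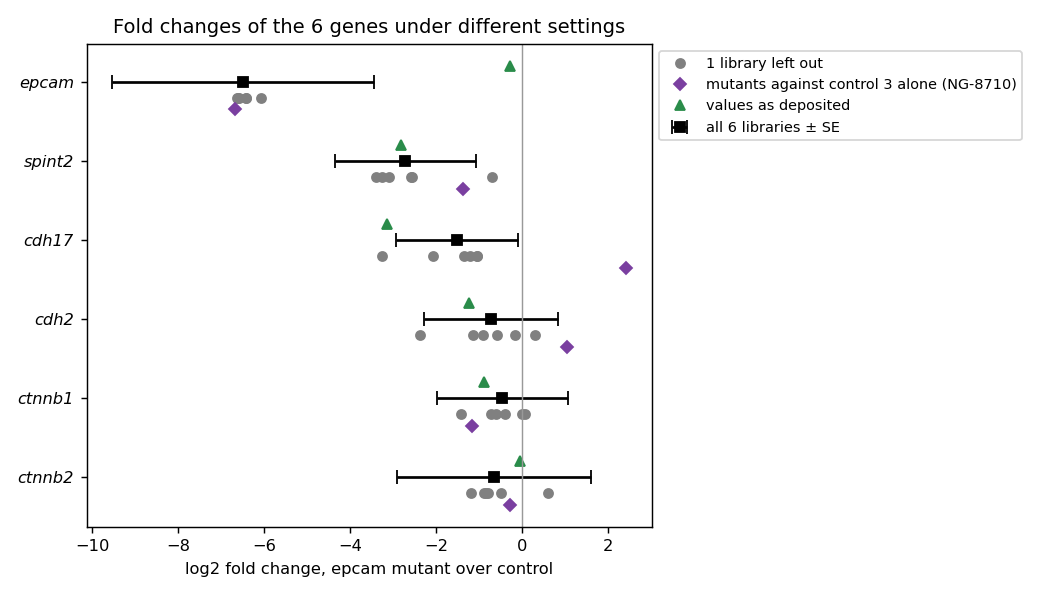
Log2 fold change of mutants over controls for each gene in the fit of all 6 libraries (black squares with SE), with 1 library left out (grey circles), for mutants against control 3 alone (purple diamonds) and on the values as deposited (green triangles). The epcam value stayed between -6.63 and -6.08 whichever library was left out, but every mutant had 0 counts, so its size is not measured. It was -5.31 by DESeq2 and -3.77 by limma-voom (not shown), and -0.28 on the deposited values. The cdh17 value moved to 2.42 against control 3 alone.

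The 0 counts of epcam in the mutants, the lack of overlap and the size of the difference all rested on subtracting each column's lowest value. As deposited, the epcam row reads 30, 31 and 17 in mutants 1 to 3 and 21, 15 and 42 in controls 1 to 3, the mutant values being the lowest of their columns. These values overlapped between the groups. Their log2 fold change was -0.28, with an unadjusted p of 0.689 and an adjusted p of 0.924 in edgeR's quasi-likelihood test. For the other genes the deposited values gave log2 fold changes of -2.81 for spint2, -3.15 for cdh17, -1.24 for cdh2, -0.89 for ctnnb1 and -0.07 for ctnnb2, all with the same sign as after subtraction.

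Rows with patterns most like each gene were ranked by Pearson's r of log2 CPM over the 6 libraries, among rows with a mean count of at least 20. These coefficients are the highest of about 3458 and share the same libraries, so they describe and do not test. For cdh17 they were slc12a3, the sodium chloride cotransporter of the distal tubule (r = 0.984, with 155, 9 and 91 counts in the mutants and 798, 1108 and 13 in the controls), atp5b, a subunit of the mitochondrial ATP synthase (0.982), and the glycosyltransferase c1galt1b (0.98). For spint2 they were the guanylate kinase guk1a (0.984), the ribosomal protein rpl23a (0.972) and veph1 (0.969), each highest in control 2. Those of ctnnb2 were the coatomer subunit copg2 (0.983), tmf1 (0.98) and the protocadherin pcdh18a (0.973), also highest in control 2. For cdh2 they were the general transcription factor subunit taf2 (0.984), trrap (0.983) and the chaperonin subunit cct6a (0.978). The rows most like ctnnb1 were the chromatin remodeller smarca4a (0.970), MARK4 (2 of 2) (0.963) and thoc2 (0.948), each at 0 counts in mutant 2. Among the 6 genes themselves, r was highest between spint2 and ctnnb2 (0.836), which share their peak in control 2, and was 0.113 between epcam and cdh17.

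Related genes were read from 6 lists, with 78 distinct rows besides the 6 genes. EdgeR called 0 of the 78, against 0.529% of all rows, while 7 higher and 3 lower rows had an unadjusted p under 0.05, against 10.8% and 4.59% of all rows. DESeq2 called 2 of the 78, ctsla and CDH22, against 4.06% of all rows, and limma-voom called 0, against 0.17%. The genes named from each list have the smallest p in their direction, which that choice fixes, and none passed edgeR's test on all 6 libraries with TMM scaling. Of the 33 genes so named, 26 had an unlogged fold change that shrank by over 1.5 times or changed direction with 1 library left out. The log2 value without that library is given beside most of these. Among the named genes, groups did not overlap for ctsla, cldn7b, ctnnd1 and csnk1a1, lower in the mutants. In the other direction they did not overlap for aph1b, CDH22, pkp4, ctnnd2b, notum1a and sp5l. Over all rows this held for 6.08% (lower) and 11.2% (higher), but the named genes were picked by small p.

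Of 13 rows for proteases, secretases and a receptor (f2rl1.2) that act on Epcam or with matriptase, 3 were above 0 and 10 below, with a median log2 fold change of -1.97. The lysosomal protease gene ctsla had 6, 0 and 14 counts in the mutants and 197, 150 and 270 in the controls (log2 fold change -4.93 ± 1.73, SE, edgeR adjusted p = 0.121, and -3.82 without control 3). The groups did not overlap for ctsla. The gamma-secretase subunit psenen had 1, 10 and 12 counts in the mutants and 61, 333 and 7 in the controls (-2.90 ± 1.72, but -1.34 without control 2 and -0.25 with the prefix as a term). The gene adam17a, encoding a sheddase of the cell surface, had 2, 0 and 13 counts in the mutants and 7, 66 and 37 in the controls (-2.78 ± 1.87, and -1.997 without control 3). The secretase subunit aph1b had 35, 12 and 8 counts in the mutants and 0, 0 and 3 in the controls. Its ratio of pooled counts was 31.2 (95% interval 10.1 to 156), or 15.5 (4.603 to 81.6) without mutant 1. Both intervals leave out the spread between libraries. The fit, which includes that spread, gave aph1b a log2 fold change of 4.22 ± 2.104 (SE, edgeR adjusted p = 0.309). With the prefix as a term the aph1b value was 2.42. The matriptase paralogue st14b had 46, 3 and 5 counts in the mutants and 1, 8 and 0 in the controls (3.85 ± 2.01, but 1.302 without mutant 1), and the serine protease tmprss4b was at 0.39 ± 2.04 (-1.13 without mutant 2 and -0.17 without control 2).

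Of 8 rows for Epcam partners, 1 was above 0 and 7 below, with a median of -0.71. The claudin cldn7b, whose mammalian relative binds EpCAM, had 18, 5 and 24 counts in the mutants and 103, 128 and 42 in the controls. Its groups did not overlap, but the log2 fold change of -1.83 ± 1.64 (SE) did not pass (edgeR adjusted p = 0.648). The tetraspanin cd9a had 0, 0 and 2 counts in the mutants and 69, 1 and 0 in the controls, almost all from control 1, and its log2 fold change was -4.27 with that library and 0.77 without it. The integrin itgb1a was at -0.97 ± 1.77 (1.48 without control 1) and the kinase prkcda at 1.72 ± 2.14 (0.45 without mutant 1).

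Of 10 other cadherin rows, 7 were above 0 and 3 below, with a median of 1.87. The neuron and glia sums given above were higher in the mutants in the same way (483 to 721 CPM in the mutants and 35.3 to 115 CPM in the controls), and their part in the cadherin values was not tested. CDH22, a cadherin best known from brain, had 129, 132 and 16 counts in the mutants and 0, 0 and 2 in the controls. The ratio of pooled counts was 235 (95% interval 64.5 to 1953, without the spread between libraries). The log2 fold change was 5.43 against control 3 alone. Over all 6 libraries it was 7.36 ± 2.04 (SE), with an edgeR adjusted p of 0.053. The same test passed for CDH22 with DESeq2 size factors (adjusted p = 0.0398) and without control 3 (0.0388), with a range of 0.0388 to 0.705 over the edgeR alternatives. With any other library left out, edgeR's adjusted p was 0.228 to 0.265. Without control 3 all mutants are NG-8710 and all controls NG-8793, so genotype and prefix cannot then be told apart. With the prefix as a term the log2 fold change of CDH22 was 5.45. The mesenchymal cadherin cdh11 had 344, 5 and 29 counts in the mutants and 9, 3 and 17 in the controls (log2 fold change 3.997 ± 1.66, but 0.47 without mutant 1). The gene cdh12a had 0, 14 and 4 counts in the mutants and 0 in each control. Its mutant mean was 3.45-fold above a floor of 3 counts per control library, but below that floor without mutant 2. That library held 14 of the 18 counts. E-cadherin, encoded by cdh1, had 21, 3 and 0 counts in the mutants and 30, 36 and 10 in the controls (log2 fold change -0.54 ± 1.79, SE). The kidney cadherin cdh6 and the endothelial cdh5 were at -0.41 ± 1.65 and -0.38 ± 1.64, and at 1.63 and 1.74 without control 1.

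Of 15 rows for other catenins and junction adaptors, 7 were above 0 and 8 below, with a median of -0.58. The neural catenin ctnnd2a had 4, 66 and 51 counts in the mutants and 1, 2 and 5 in the controls (log2 fold change 4.16 ± 1.94, SE, and 2.91 without mutant 2), beside the higher neuron and glia sums of the mutants. The p120-catenin gene ctnnd1, whose product stabilises cadherins at the membrane, had 15, 7 and 33 counts in the mutants and 45, 355 and 32 in the controls (-2.07 ± 1.60, but -0.96 without control 2). The scaffold magi1b had 34, 13 and 40 counts in the mutants and 97, 68 and 237 in the controls (-2.18 ± 1.53, but -0.41 without control 3), and vcla, encoding vinculin, was at -2.12 ± 1.74. The catenin relatives pkp4 and ctnnd2b were at 1.57 ± 1.79 and 1.03 ± 1.72.

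Of 26 rows for the beta-catenin destruction complex and its nuclear partners, 11 were above 0 and 15 below, with a median of -0.77. The casein kinase csnk1a1, which primes beta-catenin for destruction, had 23, 11 and 100 counts in the mutants and 324, 745 and 270 in the controls, without overlap (log2 fold change -2.92 ± 1.53, SE, edgeR adjusted p = 0.34). The repressor tcf7l1b had 2, 0 and 10 counts in the mutants and 577, 53 and 1 in the controls (-5.02 ± 1.80, but -1.89 without control 1). Of the Apc-binding amer2, 2599 of the 2784 control counts lay in control 2, and the log2 fold change was -3.91 with that library and -0.90 without it. The coactivator bcl9l had 215, 5 and 86 counts in the mutants and 8, 2 and 10 in the controls (4.19 ± 1.72, but 2.37 without mutant 1). The factor tcf7 was at 2.12 ± 2.20 (1.17 without mutant 1) and siah1 at 1.67 ± 1.89 (0.18 without mutant 2).

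Of 8 rows used as readouts of beta-catenin signalling, 2 were above 0 and 6 below, with a median of -0.90. The Wnt deacylase notum1a had 11, 132 and 12 counts in the mutants and 0, 0 and 3 in the controls. The ratio of pooled counts was 87.8 (95% interval 29.5 to 430.4), or 16.8 (5.07 to 87.2) without mutant 2, which held 132 of the 155 mutant counts. These intervals leave out the spread between libraries. The fit, which includes it, gave notum1a a log2 fold change of 5.97 ± 2.02 (SE, edgeR adjusted p = 0.111). Against control 3 alone the notum1a value was 4.12. The transcription factor sp5l had 10, 12 and 12 counts in the mutants and 0, 6 and 0 in the controls (log2 fold change 3.64 ± 2.20, SE). The transcription factor lef1 had 5, 3 and 46 counts in the mutants and 344, 32 and 33 in the controls (-2.48 ± 1.62, but -1.05 without control 1), and the cyclin ccnd1 had 10, 2 and 62 in the mutants and 429, 122 and 6 in the controls (-2.29 ± 1.57, but -0.65 without control 1). The feedback inhibitor nkd1 had 10, 0 and 16 counts in the mutants and 0, 216 and 0 in the controls, and its log2 fold change was -1.96 with control 2 and 6.15 without it. Without control 2 only controls at 0 counts remain, so the size of that value is not measured.

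**Figure D5:**
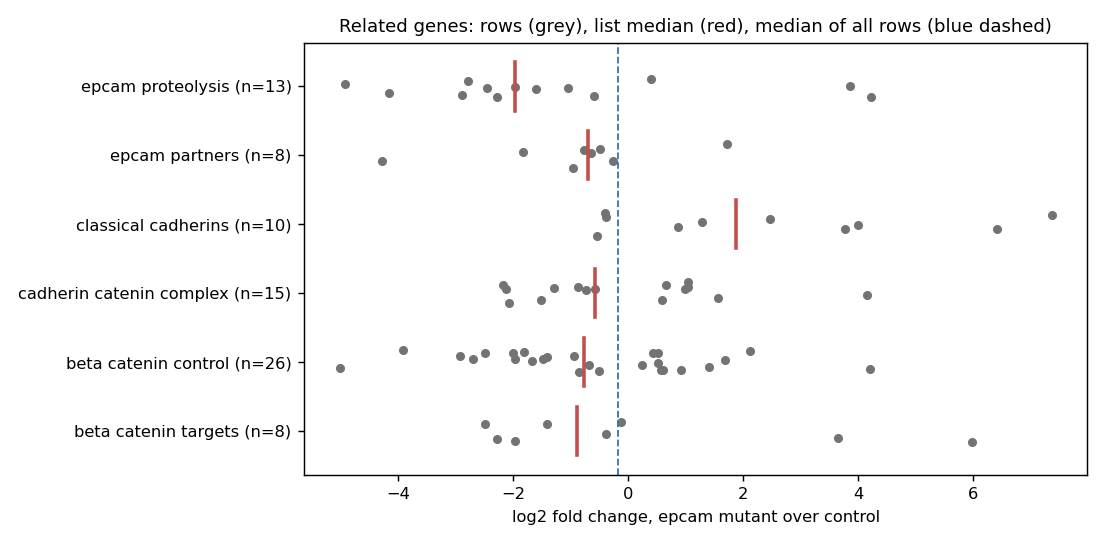
Log2 fold change of mutants over controls for each row of the 6 lists of related genes (grey points), with the median of each list (red bar) and the median of all rows (blue dashed line, -0.18). List medians ran from -1.97 for proteases and secretases to 1.87 for other cadherins, and single rows of every list lay on both sides of 0.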

How the data were processed

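Laser-captured distal pronephric tubule was profiled in 3 epcam mutant and 3 control libraries. Per the labels' protocols, RNA was reverse transcribed with random and oligo(dT) primers, whole-transcriptome amplified and sequenced without strand. Trimmomatic 0.36.0, TopHat2 2.1.0, the GRCz10 build and DESeq2 are listed in the submitters' processing notes. No counting tool is given in the sources used here. The authors deposited whole-number counts for 10022 rows, and a table of 379 rows with an adjusted p-value (FDR) per the file headers.

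The lowest value of a column was 30, 31 and 17 in mutants 1 to 3 and 11, 0 and 32 in controls 1 to 3. It was subtracted from that column, an inference from the values that no label states. The genes and lists were chosen with earlier results of these data known. List members were matched by row name or by symbol in the reference name table, which held the identifiers of 9641 rows and of all 6 genes.

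Counts were tested in R 4.3.3 with edgeR 4.0.16 (quasi-likelihood, robust, TMM, group as the only term, all rows, Benjamini-Hochberg threshold 0.05). Every deposited row entered, but the file name calls the counts filtered and no source used here states that filter, so a row such as epcam may have been kept only through its higher group. Standard errors were obtained from the log2 fold change and the square root of F, and the approximate interval takes it as normal. Single levels and shares used two-sided exact permutation tests (scipy 1.17.1). Intervals are at 95% and, like the floor of 3 counts, cover counting error only, since amplified reads are not independent molecules. From each list of related genes the rows with the 3 smallest p in each direction were named, and for each gene with counts in at least 4 libraries the 3 rows most like it. Alternatives used DESeq2 1.42.0, limma 3.58.1, other scaling, a filter, a replicate block, the library-name prefix and each library left out. The code of the fits was run on simulated data. These lacked the differences in capture content seen here, so accuracy on these libraries was not measured. 1 listed gene is not reported here.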

Additional observations from a re-analysis of the deposited data

How the results depend on the processing

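The count of called rows depended on the setting. Against 53 by edgeR over all rows, upper-quartile scaling called 31 (14 higher, 17 lower), DESeq2 size factors in edgeR 101, DESeq2 407, limma-voom 17 and the library-name prefix as a term 32 (all lower). The low-count filter (3869 rows, without epcam and ctnnb2), the values as deposited, the comparison within NG-8710 and the replicate block each called 0, and leaving out 1 library gave 0 to 19. The numbers 1 to 3 paired no samples by label, and same-numbered mutants and controls correlated at 0.0408, -0.0308 and 0.0231 in their deviations from the group means, so the block result is not read as a weaker effect. No setting brought any of the 6 genes past the threshold, and the sign stayed as reported in 80 of 88 refits. The sign turned with the prefix as a term and within NG-8710, in that order, for cdh17 (2.42 in both), cdh2 (1.04 in both), amer2 (2.26, 2.25), ccnd1 (1.21 in both), cd9a (2.78, 2.35), cdh5 (1.60, 1.59), cdh6 (3.05, 3.04), itgb1a (1.16 in both), nkd1 (6.40, 5.88), tcf7l1b (1.19, 1.16) and vcla (6.68, 6.16). For cd9a, nkd1 and vcla, control 3 had 0 counts, so the sizes of their values in these prefix settings are not measured. Limma-voom turned ctnnb2 (0.051), cdh6 (0.28), nkd1 (0.81) and tmprss4b (-0.076), the replicate block turned cdh6 (0.50), nkd1 (3.28) and tmprss4b (-0.51), and the values as deposited turned ctnnd2b (-0.036). With 1 library left out the ranges that crossed 0 were -2.37 to 0.28 for cdh2, -1.44 to 0.069 for ctnnb1, -1.19 to 0.61 for ctnnb2, -7.12 to 0.77 for cd9a, -5.02 to 1.74 for cdh5, -1.20 to 1.63 for cdh6, -1.66 to 1.48 for itgb1a, -2.54 to 6.15 for nkd1, -1.13 to 2.21 for tmprss4b, -9.61 to 3.44 percentage points for the ctnnb1 share and -12.8 to 10.203 percentage points for the cdh2 share. Within NG-8710 the cdh2 share differed by -13.9 percentage points and the cdh17 share of pronephric counts by 4.06. The cause of these turns was not tested, except that both prefix settings leave control 3 alone to stand for its genotype. Scaling moved the median log2 fold change of all rows from -0.18 to -0.27 (upper quartile) and -0.03 (DESeq2 size factors). A difference in ctnnb2, at or below 3 counts in 5 libraries, was not detectable at this depth.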
